A study of Homo sapiens with 6 samples.

Results

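The tetraspanin genes of PC-3 cells were compared between cells depleted of CdGAP and control cells. PC-3 is a line of human prostate cancer cells long kept in culture, and CdGAP, the product of ARHGAP31, is a GTPase-activating protein that switches off the small GTPases Rac1 and Cdc42. RNA of 3 samples with an shRNA against CdGAP (labelled shCDGAP, here shCdGAP) and of 3 samples with a control shRNA (labelled shCONTROL, here shCon) was sequenced. According to the methods, the depleted cells were selected with puromycin and grown from a single cell, so that the effect of the shRNA and the properties of 1 clone cannot be told apart, and the spread between replicates is that within the cultures sampled. The family was taken by symbol, as the protein-coding genes named TSPAN with a number plus CD9, CD37, CD53, CD63, CD81, CD82, CD151, UPK1A, UPK1B, PRPH2 and ROM1, which gave 33 genes of the 64253 counted. Members were chosen by symbol, whatever their values, but the family was selected on the measured values of TSPAN18, known to stand high in shCdGAP cells in this same comparison, so TSPAN18 is described without a test.

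Tetraspanins are small membrane proteins that pass through the membrane several times and carry a large extracellular loop held by cysteine bridges. They bind integrins, proteases, immunoglobulin-type proteins and each other, and so gather their partners into membrane microdomains that act in adhesion, migration, receptor trafficking and the budding of vesicles. In prostate cancer the family is best known for CD82, which was described as a suppressor of metastasis, while CD151 is known as a partner of the laminin-binding integrins.

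The libraries held between 33182796 and 43154039 counted reads. ARHGAP31 had 1072, 1181 and 926 reads in shCdGAP replicates 1, 2 and 3 and 2472, 2557 and 1923 in the shCon replicates, a log2 fold change of -1.14 (standard error, SE, of 0.0409). Replicate 2 of shCdGAP stood apart from the other 2 shCdGAP libraries, with a chi-square per degree of freedom of 26.6 and 32.7 against them, while all other pairs of one group lay between 2.58 and 6.89. The epithelial markers KRT8, KRT18, KRT19, EPCAM and CDH1 summed to 972 to 1226 CPM (counts scaled to the size of each library) in shCdGAP cells and 741 to 762 CPM in shCon cells. KRT19 (log2 fold change 1.04) and EPCAM (1.35) rose, while CDH1, with 29.6, 50.5 and 25.4 CPM against 56.6 to 59.8 CPM, lay lower without overlap and did not pass (-0.72, adjusted p = 0.0636, edgeR). The prostate luminal markers KLK3, KLK2 and FOLH1 had no read in any library, and TMPRSS2 had at most 2 in any library.

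Of the 33 tetraspanin genes, 29 had a read in some library and 22 passed the filter on low counts. At an adjusted p under 0.01 (edgeR quasi-likelihood test, adjusted over 16439 genes), of the 21 other than TSPAN18, 11 members rose, 3 fell and 7 did not pass. In bulk RNA, a change in the number of cells that express a gene and a change in its RNA per cell cannot be told apart. Among all tested genes 46.2% passed, 24.1% higher and 22% lower. Adding an absolute log2 fold change above 1 left CD82 and TSPAN13, both higher, where 12.8% of all tested genes passed both limits, 8.56% higher and 4.19% lower. These counts use the comparison for which the family was chosen and are a description. They include CD82, which passed the filter on low counts only through its shCdGAP libraries. The median log2 fold change was 0.45 over the 22 members, TSPAN18 included, and 0.01 over all tested genes. Groups did not overlap for 16 of the 22, TSPAN18 among them, against 67.1% of all tested genes. Replicate 2 was the highest shCdGAP library for 16 of the 22 members and for 41.4% of all tested genes. Without that library, 5 of the 22 members were lower and 13 were higher, a count that includes TSPAN18, whose values chose the family. Among all tested genes 60% passed in that run, 30% in each direction. TSPAN13 was no longer past the fold limit there.

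**Figure D1:**
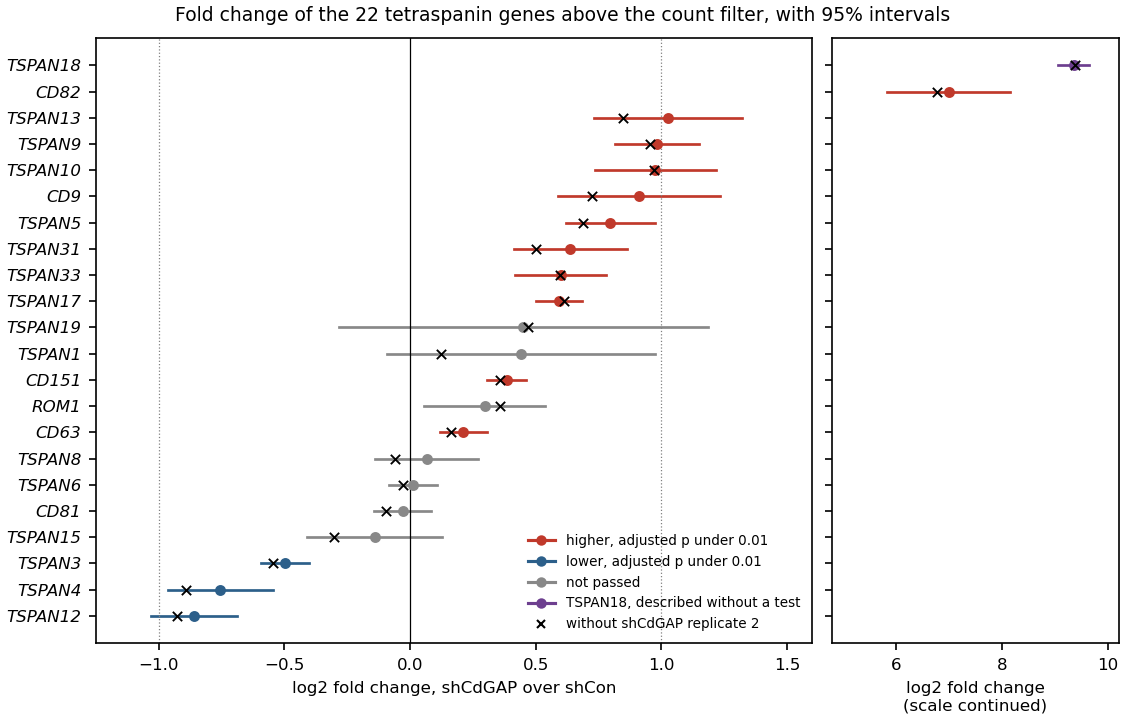
Log2 fold change of each tetraspanin gene above the count filter in shCdGAP over shCon cells (points), with 95% intervals (bars) from the edgeR fit of 3 against 3 libraries, and the value without shCdGAP replicate 2 (crosses). The right panel continues the axis, the dotted lines stand at -1 and 1, and TSPAN18 at 9.36 and CD82 at 6.99 lie far from the other 20 genes, which range from -0.86 to 1.03. The bar of TSPAN18, whose values chose the family, is not a test. CD82 passed the count filter only through its shCdGAP libraries.

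On a per-length scale, in TPM (counts divided by gene length and then scaled to the same total in each library), the family summed to 2100, 2446 and 2059 TPM in shCdGAP cells and 1762, 1804 and 1772 TPM in shCon cells. Every shCdGAP library lay above every shCon library, and the means were 2202 ± 213 and 1779 ± 22.2 TPM (SD, n = 3), a ratio of 1.24. The difference in mean TPM was made up mostly by TSPAN13 (112), CD151 (103), TSPAN18 (82), CD63 (64.2) and CD9 (63.3), while TSPAN3 (-36.2), TSPAN15 (-22.6) and TSPAN4 (-19.5) went the other way. The endosomal and vesicle protein CD63 was the most abundant member in both groups, with a level of 441.3 ± 23.9 TPM in shCdGAP and 377 ± 7.64 TPM in shCon cells (SD, n = 3). CD151 followed with 428 ± 13.1 and 325 ± 5.57 TPM, and in shCdGAP cells these neighbours in the order differed by less than the SD of CD63. TSPAN15 was the third in both groups. TSPAN18 moved from rank 22 of the 33 genes in shCon to rank 9 in shCdGAP cells, between TSPAN3 at 91.3 ± 5.46 TPM and TSPAN6 at 74.1 ± 4.06 TPM.

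**Figure D2:**
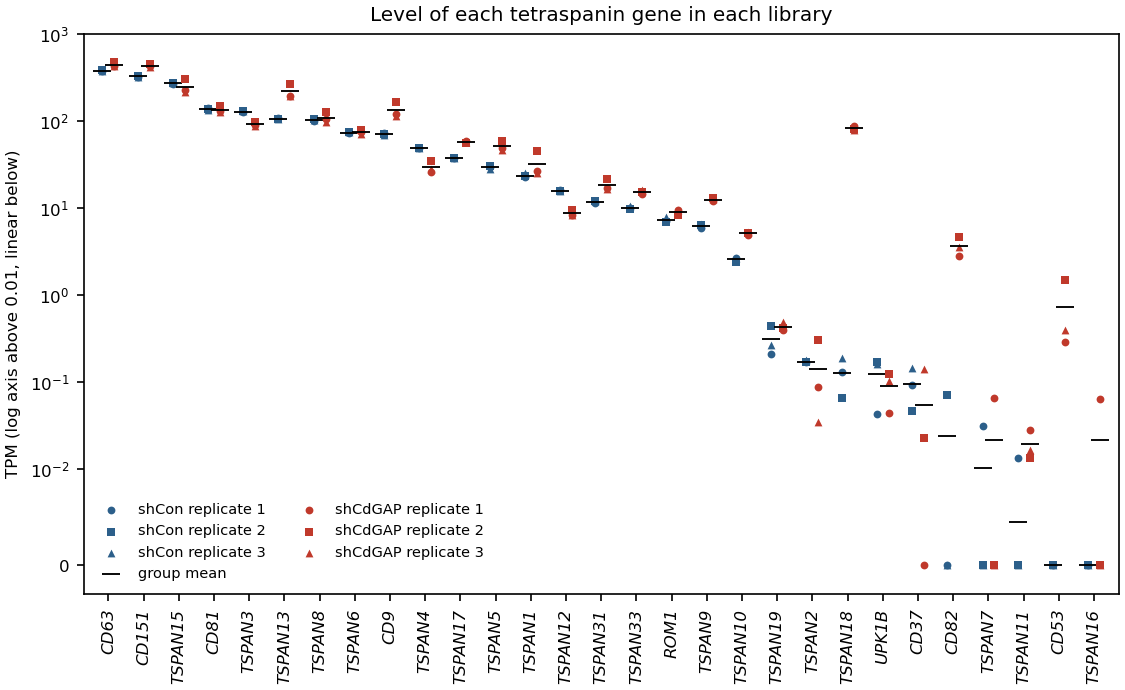
Level of the 29 tetraspanin genes with a read, in TPM, in each of the 3 shCon (blue) and 3 shCdGAP (red) libraries, with group means as black bars, on an axis that is logarithmic above 0.01. Genes are ordered by their shCon mean, and TSPAN18, CD82 and CD53 are the genes whose red points stand far above their blue ones.

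TSPAN18 is a tetraspanin of endothelial cells that binds the calcium channel ORAI1 and keeps it at the cell surface. TSPAN18 (ENSG00000157570, GRCh38 chromosome 11 from 44726465 to 44932421, plus strand) was counted at 5135, 5035 and 4003 reads in shCdGAP cells and at 8, 4 and 9 in shCon cells. The groups were far apart, at 119.6 ± 6.14 and 0.186 ± 0.0889 CPM (SD, n = 3), and the log2 fold change was 9.36 (SE 0.128). Unlike many other members, TSPAN18 was no higher in replicate 2 than in the rest of its group, its CPM there being 0.951 times the mean of replicates 1 and 3. Its share of the family's TPM was 3.28% to 4.15% in shCdGAP and at most 0.0104% in shCon libraries.

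CD82, also called KAI1, the metastasis suppressor of the family, lies on the same strand, and its end is 106 kb from the start of TSPAN18. CD82 (ENSG00000085117, chromosome 11 from 44564427 to 44620363) was covered by 114, 200 and 122 reads in shCdGAP cells and 0, 3 and 0 reads in shCon cells. All 3 shCdGAP libraries lay above all shCon libraries, although the level reached was low, at 3.64 ± 0.915 TPM (SD, n = 3) or rank 21 in the family. The ratio of summed reads, scaled by library size, was 144 with a 95% counting interval of 48.9 to 700. The fitted log2 fold change was 6.99 (SE 0.509, adjusted p = 6.06e-06, edgeR), and it was 10.1 without shCon replicate 2, the only control library with a read. CD82 reached the filter on low counts, 0.242 CPM, only through its shCdGAP libraries. Among the genes named below, so did VCAM1, IGSF3, C11orf96, LINC02704, TP53I11 and PDGFRB. Each of these genes was thus tested because it was high in that group. In TPM, TSPAN18 stood 17.4 to 31.1 times above CD82 in shCdGAP libraries.

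The promoter of CD82 is shown because CD82 is the member with the largest tested change. It is the 300-base window from 250 bases before to 50 bases after the RefSeq start (GRCh38.p14, chr11:44565413-44565712, plus strand). Capitals mark its 4 matches to the GC box, the letters GGGCGG or their reverse complement, a motif bound by SP-type factors.
CD82: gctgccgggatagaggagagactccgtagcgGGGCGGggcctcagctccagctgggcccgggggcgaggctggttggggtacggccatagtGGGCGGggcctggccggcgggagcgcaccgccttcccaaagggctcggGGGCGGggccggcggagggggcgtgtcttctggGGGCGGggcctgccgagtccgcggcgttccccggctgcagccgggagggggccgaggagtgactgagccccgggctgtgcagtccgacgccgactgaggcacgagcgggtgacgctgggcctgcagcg

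Between CD82 and TSPAN18 lies the long non-coding gene LINC02704, which had 12, 12 and 14 reads in shCdGAP cells and none in the 3 shCon libraries. Against a floor of 3 reads per library, LINC02704 was at least 4.19-fold higher. TP53I11, a p53-induced gene on the opposite strand, overlaps the end of TSPAN18 by 46.5 kb, while their exons share 1.26% of the exon bases of TSPAN18. TP53I11 had 57, 217 and 68 reads in shCdGAP and 6, 3 and 4 in shCon libraries, a log2 fold change of 4.63 (SE 0.727, adjusted p = 0.00126, edgeR) that was 3.87 without shCdGAP replicate 2 and did not pass with no filter on low counts (adjusted p = 0.0183). Counting used the strand, and the opposite-strand genes TSPAN18-AS1 and CD82-AS1 had no read. On the far side of CD82, EXT2, an enzyme of heparan sulfate synthesis, had a log2 fold change of -0.02 (SE 0.0364), and C11orf96 beyond it rose by 3.07 (SE 0.369, adjusted p = 0.000111). ACCS, also on that side, did not pass (log2 fold change 0.52, adjusted p = 0.0173) but passed at 0.60 without shCdGAP replicate 2 (adjusted p = 0.000138). After TSPAN18, PRDM11 had a log2 fold change of 0.53 (adjusted p = 0.00240, but 0.0103 to 0.0138 without shCdGAP replicate 1 or 3 or shCon replicate 1 or 2) and the fucose transporter gene SLC35C1 one of 0.51 (adjusted p = 2.56e-05). SYT13, picked out after its counts were seen and below the filter on low counts, had 4, 8 and 6 reads against none. Against the floor of 3 reads per library it was at least 1.96-fold higher, or 1.76-fold without shCdGAP replicate 2. ALX4 and CHST1 in the same stretch had no read.

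**Figure D3:**
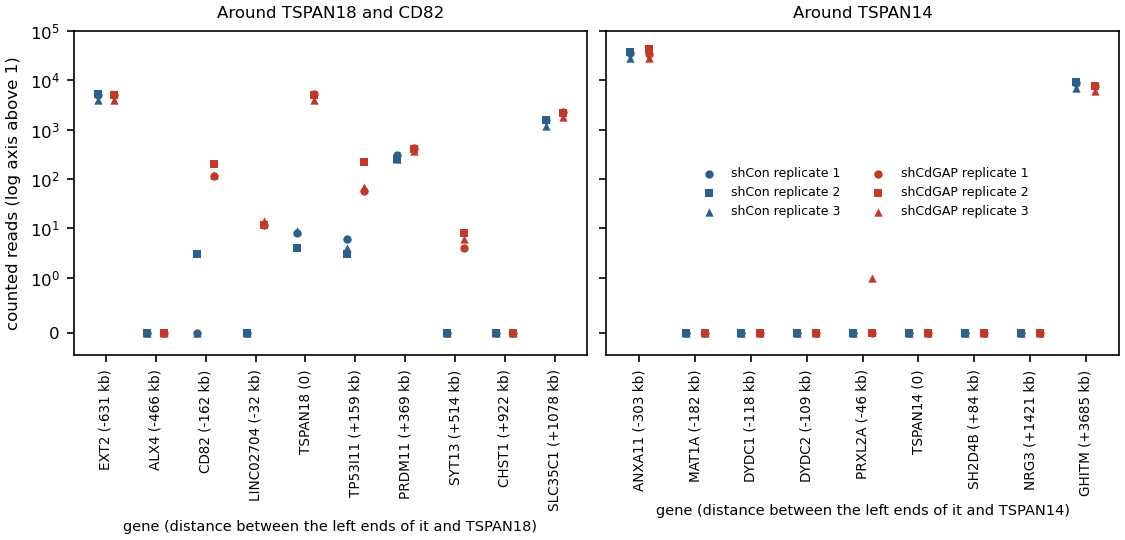
Counted reads per library for the protein-coding genes, plus LINC02704, around TSPAN18 and CD82 (left) and around TSPAN14 (right), in order along the chromosome with the distance of each from TSPAN18 or TSPAN14 in kb, on an axis that is logarithmic above 1. On the left CD82, LINC02704, TSPAN18, TP53I11 and SYT13 have red shCdGAP points above blue shCon points. PRDM11 and SLC35C1 do as well, by a smaller step, while EXT2 does not. On the right TSPAN14 and the coding genes between ANXA11 and GHITM lie at 0 in both groups, apart from 1 read of PRXL2A.

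TSPAN13, one of the more abundant members, had 107, 146 and 107 CPM in shCdGAP cells and 59.9, 58.1 and 58.7 CPM in shCon cells. Each shCdGAP library was above the shCon libraries, with replicate 2 the highest. TSPAN13 (ENSG00000106537, chromosome 7 from 16753535 to 16784536) rose by a log2 fold change of 1.03 (SE 0.124, adjusted p = 0.000349, edgeR), and by 0.85 without replicate 2, but it missed the threshold when genes with few reads were kept (adjusted p = 0.0111). Its neighbours did not share one direction. AHR, the dioxin receptor, rose by 0.71 (adjusted p = 1.05e-05) and ANKMY2 by 0.54 (adjusted p = 1.81e-05), while BZW2, SOSTDC1, ENSG00000237773 and the secretory gene AGR2, 7.28 kb from its end, did not pass at -0.03, 0.51, -0.22 and -0.08. AGR2 had 1237, 2884 and 950 reads in shCdGAP and 1524 to 1832 in shCon libraries, so that replicate 2 lay above and the other shCdGAP libraries below every control, and without replicate 2 its log2 fold change was -0.60 (adjusted p = 2.62e-14). The TSPAN13 promoter (GRCh38.p14, chr7:16753505-16753804, plus strand), shown as that of the other called member with an entry, holds 3 GC boxes in capitals.
TSPAN13: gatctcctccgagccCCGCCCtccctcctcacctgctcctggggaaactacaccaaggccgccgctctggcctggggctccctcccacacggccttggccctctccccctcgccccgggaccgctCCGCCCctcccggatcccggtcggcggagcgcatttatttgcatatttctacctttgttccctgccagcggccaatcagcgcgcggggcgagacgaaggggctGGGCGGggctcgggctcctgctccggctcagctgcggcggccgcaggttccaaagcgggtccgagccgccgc

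TSPAN9, a tetraspanin studied mainly in platelets, had 16.7, 18 and 18 CPM in shCdGAP cells and 8.25, 9.0 and 9.41 CPM in shCon cells. Its log2 fold change of 0.98 (SE 0.0734, adjusted p = 5.94e-06, edgeR) sat just below the fold limit, as did that of TSPAN10 at 0.98, while TSPAN13 was just above it.

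Among the widely expressed surface and vesicle members, CD9, CD63, CD82 and CD151 rose and CD81 did not pass. CD9, a partner of adhesion and fusion proteins, had 98.9, 134 and 94.1 CPM in shCdGAP and 59.3, 58.5 and 56.5 CPM in shCon cells. The lowest shCdGAP value was above the highest control, and the log2 fold change was 0.91 (SE 0.134, adjusted p = 0.00108, edgeR), or 0.72 without replicate 2, and it did not pass with no filter on low counts (adjusted p = 0.0224). CD81, its close relative and the entry receptor of hepatitis C virus, had 238, 266 and 236 CPM against 257, 254 and 244 CPM. These groups overlapped, with a log2 fold change of -0.03 (95% interval -0.14 to 0.09, adjusted p = 0.638), and without shCdGAP replicate 2 it was -0.10 and passed (adjusted p = 0.00151). The ratio of CD9 to CD81 in TPM was 0.933, 1.13 and 0.894 in shCdGAP and 0.517 to 0.518 in shCon libraries.

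CD151 had 411, 428 and 414 CPM in shCdGAP cells and 316, 325 and 318 CPM in shCon cells, with little spread within either group. The log2 fold change of CD151 was 0.38 (SE 0.0339, adjusted p = 1.62e-05, edgeR). CD63 rose least of those that passed, with a log2 fold change of 0.21 (SE 0.0409, adjusted p = 0.00185), and it lost this call when any 1 shCon library was left out (adjusted p = 0.0192, 0.010 and 0.0161).

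Of the 5 laminin-binding integrin chains listed as partners of CD151, 2 fell and 3 did not pass, so 40% passed, against 46.2% of all tested genes. ITGB4, the chain that pairs with ITGA6 and anchors epithelial cells at hemidesmosomes, had 482, 1192 and 401 reads in shCdGAP and 9295, 9924 and 8246 in shCon cells. All shCdGAP values were far below the controls, at a log2 fold change of -3.78 (SE 0.378, adjusted p = 0.000685, edgeR). ITGB1, the common beta chain, fell by 0.35 on the log2 scale (adjusted p = 3.33e-05). ITGA3 at -0.24 (adjusted p = 0.0108), ITGA6 at -0.04 (adjusted p = 0.728) and ITGA7 at 0.70 (adjusted p = 0.0199) did not pass, and ITGA3 and ITGA6 passed without shCdGAP replicate 2, at -0.33 and -0.17. CD151 and ITGB4 thus had changes of opposite sign.

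Of 4 immunoglobulin-type partners of CD9 and CD81, IGSF8 rose (log2 fold change 0.49, adjusted p = 7.19e-05, edgeR) and IGSF3 rose (3.40, SE 0.578, adjusted p = 0.00102) from 3, 5 and 3 to 20, 71 and 31 reads, with 2.81 without shCdGAP replicate 2. PTGFRN, the other main partner, had 1, 7 and 0 reads in shCdGAP and 1, 0 and 0 in shCon libraries, and CD101 had none. Of 19 tested genes of the vesicle machinery around CD63, 4 rose, 6 fell and 9 did not pass. Thus 52.6% passed, against 46.2% of all tested genes. The adaptor syntenin (SDCBP) fell by 0.30 on the log2 scale (adjusted p = 0.00214, but 0.0117 without shCdGAP replicate 1 and 0.0101 without shCon replicate 2) and its ESCRT-associated partner ALIX (PDCD6IP) fell by 0.72 (adjusted p = 2.58e-07). TSG101, of the ESCRT-I complex, rose by 0.56 (adjusted p = 5.38e-06), RAB27B, which acts in vesicle release, by 0.60 (adjusted p = 1.10e-06) and the syndecan SDC1 by 0.79 (adjusted p = 0.000162). The lysosomal protein gene LAMP1, on chromosome 13, fell by 1.5 on that scale (SE 0.0348, adjusted p = 1.32e-08).

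The TspanC8 members, named for 8 cysteines in the large loop, bind the protease ADAM10 and carry it from the endoplasmic reticulum to the surface, each favouring its own substrates. Of the 6, TSPAN5, TSPAN10, TSPAN17 and TSPAN33 rose, TSPAN15 did not pass, and TSPAN14 had no read. TSPAN5 had 90, 107 and 86.2 CPM in shCdGAP and 54.2, 56.2 and 52.4 CPM in shCon cells. Groups were separate, and the log2 fold change was 0.80 (SE 0.0768, adjusted p = 3.63e-05, edgeR). TSPAN17 had 75.5, 71.1 and 74.9 CPM against 49.1, 48.5 and 49.2 CPM, a log2 fold change of 0.59 (SE 0.0399, adjusted p = 3.16e-06). TSPAN33 rose by 0.60 (adjusted p = 0.000204) and TSPAN10, known from pigment cells, by 0.98 (adjusted p = 5.81e-05), both from lower levels of 9.97 and 2.55 TPM in shCon cells.

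TSPAN15 was the most abundant TspanC8 gene, with 148, 195 and 143 CPM in shCdGAP and 174, 180 and 181 CPM in shCon libraries. Replicate 2 lay above every control and the other shCdGAP libraries below, for a log2 fold change of -0.14 (95% interval -0.41 to 0.13, adjusted p = 0.320), while without replicate 2 it was -0.30 and passed (adjusted p = 9.54e-13). Its share of the TspanC8 TPM was 64.1%, 69.0% and 63.3% in shCdGAP and 76.8%, 77.4% and 77.6% in shCon libraries, with no overlap. TSPAN5 held 13.5% to 13.9% against 7.99% to 8.60%, and TSPAN17 12.8% to 16.8% against 10.6% to 11%. The summed TspanC8 level was 376 ± 50.7 TPM in shCdGAP and 349 ± 5.75 TPM in shCon cells (SD, n = 3), and the groups overlapped, with 341 to 434 TPM against 342 to 352 TPM.

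**Figure D4:**
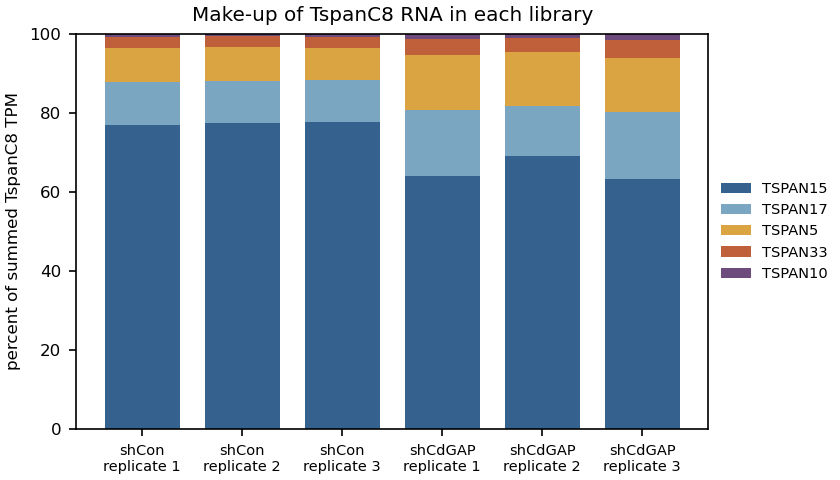
Share of the summed TspanC8 TPM held by each gene in each library (stacked bars, percent). TSPAN15 holds 76.8% to 77.6% in the shCon libraries and 63.3% to 69.0% in the shCdGAP libraries, and TSPAN14 has no read and no segment.

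ADAM10 itself fell by 0.26 on the log2 scale (SE 0.0489, adjusted p = 0.00145, edgeR), from 5376, 5478 and 4280 to 4247, 5033 and 3508 reads, and the related protease ADAM17 fell by 0.46 (adjusted p = 8.65e-05). Of 11 tested ADAM10 substrates, 3 rose, 2 fell and 6 did not pass, so 45.5% passed, against 46.2% of all tested genes. CD44, the hyaluronan receptor, rose by 0.63 (adjusted p = 8.54e-07), and the growth factor precursors BTC and EGF rose by 0.77 (adjusted p = 0.000224) and 2.15 (adjusted p = 6.17e-06). NOTCH1 fell by 0.36 (adjusted p = 0.00178) and CDH2 by 0.46 (adjusted p = 9.32e-05).

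TSPAN14 (ENSG00000108219, chromosome 10 from 80454166 to 80533123) was at 0 reads in all 6 libraries, where 3 reads would be 0.0689 to 0.0908 CPM. The gap was not limited to TSPAN14. Of the 7 protein-coding genes in the 3.93 Mb between ANXA11 and GHITM, 6 had no read in any library and the seventh, PRXL2A, had 1 read in all. ANXA11, with 28478 to 41879 reads, and GHITM, with 6093 to 9005 reads, were well covered in both groups. Of the 37 annotated genes of any kind between them, 30 had no read, and the exception with many was the long non-coding LINC00857 near ANXA11, with 654 to 1002 reads per library. This stretch was chosen after the counts were seen, and the absence is common to shCdGAP and shCon cells.

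The members that fell were TSPAN12, TSPAN4 and TSPAN3. TSPAN12, a co-receptor that joins FZD4 and LRP5 in the receptor for the ligand Norrin (NDP), had 6.93, 7.78 and 6.98 CPM in shCdGAP and 13.3, 13.1 and 13 CPM in shCon cells. The groups were well separated, and TSPAN12 (ENSG00000106025, chromosome 7 from 120787320 to 120858402, minus strand) fell by 0.86 on the log2 scale (SE 0.0754, adjusted p = 1.57e-05, edgeR). FZD4 had 1075, 1438 and 873 reads in shCdGAP and 2308, 2319 and 1882 in shCon cells and fell by 0.97 (SE 0.0904, adjusted p = 3.17e-05). LRP5 fell by 0.44 (SE 0.0334, adjusted p = 6.07e-06). NDP rose by 0.93 (SE 0.0937, adjusted p = 3.67e-05), from 136, 144 and 108 to 247, 276 and 223 reads. All receptor genes of this set were therefore lower and the ligand gene higher, in every library. The TSPAN12 promoter (GRCh38.p14, chr7:120858095-120858394, minus strand) is given beside those of CD82 and TSPAN13 as that of the member with the largest decrease, and it has no GC box.
TSPAN12: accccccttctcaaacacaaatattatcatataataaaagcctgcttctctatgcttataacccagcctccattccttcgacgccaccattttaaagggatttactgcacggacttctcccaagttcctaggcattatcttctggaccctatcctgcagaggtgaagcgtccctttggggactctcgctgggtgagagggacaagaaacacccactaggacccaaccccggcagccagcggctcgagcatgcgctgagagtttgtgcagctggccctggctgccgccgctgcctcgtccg

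**Figure D5:**
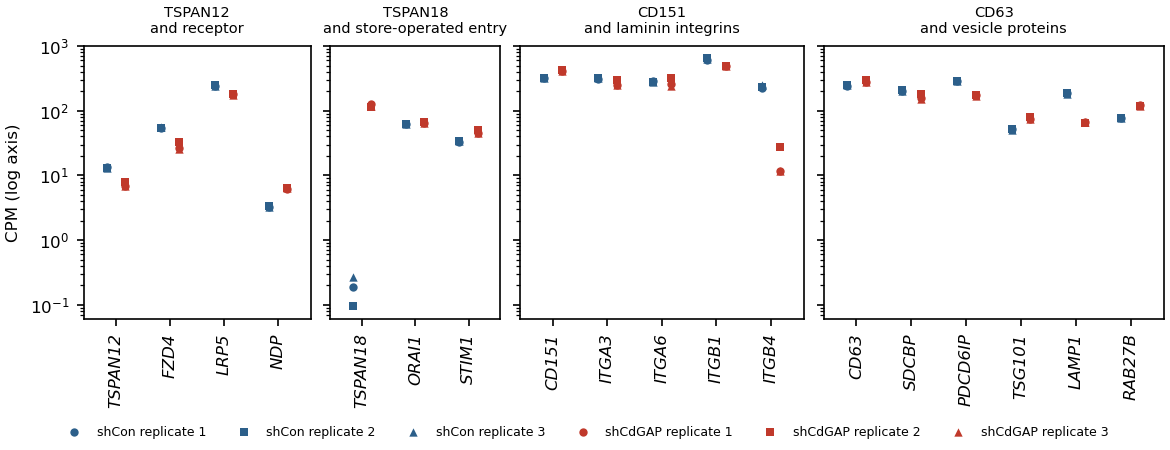
CPM on a log axis in each library for 4 tetraspanin genes and listed partners, with shCon in blue and shCdGAP in red. TSPAN12, FZD4 and LRP5 are lower and NDP is higher in shCdGAP libraries, ORAI1 is near the same level beside the change of TSPAN18, ITGB4 is far lower beside a higher CD151, and LAMP1 and PDCD6IP are lower beside a higher CD63.

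TSPAN4, a marker of migrasomes, the vesicles that migrating cells leave on their retraction fibres, had 36.9, 48.7 and 40.5 CPM in shCdGAP and 71.4, 71.1 and 70.5 CPM in shCon cells. All shCdGAP libraries were lower, and TSPAN4 fell by 0.76 on the log2 scale (SE 0.0904, adjusted p = 0.000159, edgeR). TSPAN4 starts 2.98 kb from the end of CD151 on the same strand of chromosome 11, and these neighbours changed in opposite directions. The ratio of TSPAN4 to CD151 in TPM was 0.0605, 0.0767 and 0.0659 in shCdGAP and 0.147 to 0.152 in shCon libraries. TSPAN3 had 188, 203 and 185 CPM against 266, 274 and 274 CPM and fell by 0.50 (SE 0.0421, adjusted p = 1.29e-05).

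TSPAN31, which neighbours CDK4 and is co-amplified with it in sarcomas, had 22.4, 28.5 and 22.3 CPM in shCdGAP and 15.1, 15.9 and 16.1 CPM in shCon cells, a log2 fold change of 0.64 (SE 0.0978, adjusted p = 0.000514, edgeR). CDK4 lies on the opposite strand, shares 25.4% of the exon bases of TSPAN31 and fell by 0.36 (adjusted p = 2.35e-05). TSPAN1, a tetraspanin of secretory epithelia, had 15.5, 26.0 and 14.8 CPM against 13.3, 13.5 and 14.8 CPM. Its log2 fold change of 0.44 (95% interval -0.09 to 0.97, adjusted p = 0.132) did not pass and was 0.12 without replicate 2. TSPAN8, known from gastrointestinal cancers and their vesicles, was at 0.07 (95% interval -0.14 to 0.27) and TSPAN6 at 0.01 (-0.08 to 0.11). TSPAN19, at 0.215 to 0.495 CPM, was at 0.45 (-0.28 to 1.18). ROM1, a protein of photoreceptor disc rims, had 5.03 to 5.85 CPM against 4.31 to 4.84 CPM, did not pass (log2 fold change 0.30, adjusted p = 0.0369) and passed without shCdGAP replicate 2 (adjusted p = 0.00303). EML3 on the opposite strand shares 24.8% of the exon bases of ROM1 and had a log2 fold change of -0.30.

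Apart from ROM1, the members of the leukocyte, urothelial and photoreceptor groups had few reads or none. CD53, a tetraspanin of leukocytes, had 6, 33 and 7 reads in shCdGAP cells and none in shCon cells, so that it was at least 4.75-fold higher against a floor of 3 reads per library, or at least 2.26-fold without shCdGAP replicate 2. The groups did not overlap, and most of the reads came from replicate 2. The 8 leukocyte markers summed to 0.419 to 0.689 CPM in shCdGAP and 0.715 to 1.18 CPM in shCon libraries. Of them, CD3E and MS4A1 had no read, and PTPRC, the common leukocyte antigen, had at most 1 read in any library. LYZ, with 4, 3 and 1 reads against 15, 27 and 26, fell by 3.06 on the log2 scale (adjusted p = 0.000614, edgeR). LYZ reached the filter on low counts, 0.242 CPM, only through its shCon libraries, so it was tested because it was high in that group. CD37, of B cells, had 0 to 5 reads per library, and TSPAN32, of blood cells, had none. UPK1B, a subunit of the urothelial plaque, had 1 to 4 reads, and UPK1A and the photoreceptor gene PRPH2 had none. TSPAN2 had 1 to 11 reads, and TSPAN7, TSPAN11 and TSPAN16 at most 2 in any library. TSPAN18 is known from endothelium, and the endothelial markers PECAM1, CDH5, VWF and KDR summed to 5.38 to 12.7 CPM in shCdGAP and 9.71 to 11.6 CPM in shCon libraries, with VWF at no more than 1 read and CDH5 at 2 to 10. Most of the sum came from PECAM1, with 93 to 261 reads in shCdGAP and 181 to 236 in shCon libraries, and from KDR, with 118 to 291 and 170 to 194. Neither passed, and both were highest in shCdGAP replicate 2. The 5 fibroblast markers summed to 334 to 343 CPM in shCdGAP and 301 to 307 CPM in shCon libraries, and COL1A1, LUM and PDGFRB among them rose. PDGFRB, with 30, 52 and 39 reads against 4, 7 and 2, reached the filter on low counts only through its shCdGAP libraries. COL1A2, the largest part of the sum with means of 279 and 286 CPM, did not pass (log2 fold change -0.04). DCN had at most 5 reads in any library. The part of such markers in the tetraspanin results was not tested.

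Over all 91 listed partner, vesicle and palmitoyltransferase genes, 81 were tested, 25 rose, 20 fell and 36 did not pass, with a median log2 fold change of 0.00. Of the 81, 55.6% passed, against 46.2% of all tested genes. Of the 21 tested receptors, channels and ligands, 9 rose and 4 fell, so 61.9% passed. VCAM1, an adhesion receptor found with CD151 and CD9, rose from 10, 6 and 4 to 224, 188 and 194 reads (log2 fold change 4.89, SE 0.239, adjusted p = 4.50e-07, edgeR). EPCAM, an adhesion molecule found in complexes with CD9, rose by 1.35 (adjusted p = 5.02e-08) and HBEGF, whose precursor binds CD9, by 1.15 (adjusted p = 5.77e-06). The tight-junction gene CLDN1, a CD81 and CD9 partner, fell by 1.23 (adjusted p = 0.000189). Of other CD81 partners, IFITM1 rose by 2.18 (adjusted p = 0.000101) and CR2 fell by 2.51 (adjusted p = 0.00197), its log2 fold change being -3.56 without shCdGAP replicate 2. STIM1, the endoplasmic reticulum calcium sensor that opens ORAI1, rose by 0.48 (adjusted p = 5.28e-05), while ORAI1 was at 0.09 (adjusted p = 0.0768) and did not pass. MMP14, a membrane protease that associates with several tetraspanins, rose by 1.42 (adjusted p = 6.72e-06). Of the 20 tested palmitoyltransferase genes, whose enzymes attach the lipids that tetraspanins need to cluster, 6 rose and 4 fell, so 50% passed. Among them, ZDHHC1 at 1.79 and ZDHHC11 at 1.15 rose past the fold limit.

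The RefSeq promoter table (GRCh38.p14) had entries for 25 of the 33 members, with 45 start sites. CD151, CD37, CD81, TSPAN18, TSPAN3, TSPAN32, TSPAN7 and TSPAN9 had none. On either strand, GGGCGG occurred in 27 of the 45 windows (60.0%) and in 45.0% of all 35116 promoters in the table. The CCAAT box (CCAAT) occurred in 24.4% and 34.6%, the E-box CAGGTG in 26.7% and 20.6%, the AP-1 site TGANTCA in 6.67% and 7.71%, and the TATA box TATAAA in 2.22% and 11.5%. Several windows of one gene overlap, such as those of CD63 with 8 starts, so the 45 are not independent. Among members that rose, the windows of TSPAN10 and TSPAN31 held no GC box and that of TSPAN5 held 10. TSPAN4, which fell, had up to 4 in a window. Any link between GC boxes and the direction of change was not tested.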

How the data were processed

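RNA-seq of 3 shCdGAP and 3 shCon samples of PC-3 cells was analysed. The authors aligned reads to GRCh38 with STAR 2.5.1b and deposited raw counts of reads per gene. In the headers, counting is by featureCounts 1.6.0 on Ensembl release 77, by strand and by read pair, while the methods name version 1.4.6 and a single-read kit. Multi-mapping reads and reads shared by overlapping genes of one strand were not counted. Symbols matched 56105 of 64253 genes (87.3%).

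The labels' replicate numbers were not used as pairs. Genes were tested with edgeR 4.0.16 in R 4.3.3 (filterByExpr, TMM with factors of 0.987 to 1.01, robust quasi-likelihood F test, Benjamini-Hochberg over 16439 genes, adjusted p under 0.01, fold limit of 1 on the log2 scale). Standard errors are the absolute log2 fold change over the square root of F. CPM use TMM-scaled library sizes, and TPM were computed from counts and the deposited gene lengths. Intervals and floors cover counting error only where they are said to come from reads. The scripts were tested on simulated counts. DESeq2 1.42.0, other scalings and filters, and each library left out in turn were alternatives.

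The members and gene lists were chosen with earlier results of these data known. Every member with a read is named. Partners are named if past both limits or among 12 picked by role, with further examples of a list picked after their values were seen, and neighbours are the 3 nearest tested genes on each side of each called member. Some listed marker and partner genes are not reported here.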

Additional observations from a re-analysis of the deposited data

How the results depend on the processing

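Of the 22 tested members, TSPAN18 included, 16 kept their call, as higher, lower or not passed, under every alternative run in which they were tested. The exceptions were TSPAN13 and CD9, which did not pass with no filter on low counts (adjusted p = 0.0111 and 0.0224), CD63, which did not pass without any 1 shCon library, and CD81, ROM1 and TSPAN15, which passed without shCdGAP replicate 2. With no filter on low counts TP53I11 did not pass either (adjusted p = 0.0183), while ITGA3 passed with no filter, with DESeq2 and with the replicate block. TSPAN6 and TSPAN8 passed in no run, but their log2 fold changes changed sign, ranging from -0.03 to 0.04 and from -0.06 to 0.13. The number of members that passed was 15 with TSPAN18 counted (12 higher) and 14 without it, a count added once the data had been seen. As the values of TSPAN18 chose the family, every count that includes it is a description. With TSPAN18 counted, the number that passed ranged from 14 to 18 when single libraries were left out. Of these, 11 to 13 were higher and 3 to 5 lower, the 5 without shCdGAP replicate 2. With DESeq2 it was 16. The number past the fold limit, all of them higher, was 3 with TSPAN18 counted and 2 without it. With it, the number was 5 with library-size scaling alone and 1 when every library needed at least 10 reads, which removes TSPAN18 and CD82 from the genes tested. It ranged from 2 to 5 with single libraries left out, with 5 without shCdGAP replicate 1. TSPAN9 and TSPAN10, at 0.98 each, lie at the fold limit. Of the 81 partner, vesicle and palmitoyltransferase genes tested in the main fit, 45 passed there, and 39 to 63 passed with single libraries left out. The 63 came without shCdGAP replicate 2, a run in which 60% of all tested genes passed, against 46.2% in the main fit. The log2 ratio of the summed family level was 0.31, ranged from 0.22 to 0.35 with single libraries left out, and was 0.25 without TSPAN18, an alternative chosen after seeing the data. With the replicate number as a block, 15 members passed and 3 were past the fold limit, TSPAN18 counted in both. Same-numbered libraries correlated at 0.0306, 0.0499 and 0.0469 in their deviations from the group means, all under 0.1 although each was the best match of its number. The labels tie the numbers to no shared culture or day, so the libraries were not treated as pairs. The 11 members below the filter have at most 33 reads per library and were not tested, so no difference is called for them at this depth. Among them only CD53 had groups that did not overlap. It had 6, 33 and 7 reads in shCdGAP and none in shCon libraries, most of them in replicate 2.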

Other observations

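Genes named for a tetraspanin but not coding for one had their own values. TSPAN5-DT, the transcript annotated as divergent from TSPAN5, had 200, 242 and 166 reads in shCdGAP cells and 22, 23 and 18 reads in shCon cells. Its log2 fold change was 3.24 (standard error, SE, of 0.143, adjusted p = 2.58e-07, edgeR's quasi-likelihood test), beside 0.80 for TSPAN5. CD63-AS1, which shares 9.0% of the exon bases of CD63 on the opposite strand, had 195, 185 and 143 reads against 115, 105 and 102, a log2 fold change of 0.67 (SE 0.125, adjusted p = 0.00149), beside 0.21 for CD63. CD81-AS1 had 15 to 25 reads per library and did not pass (log2 fold change 0.20, adjusted p = 0.560). POLR2L, which shares 6.53% of the exon bases of CD151 on the opposite strand, did not pass (0.11, adjusted p = 0.0425). These genes were picked after their values were seen.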
